A study of Homo sapiens with 12 samples.

Results

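The genes described here are 10 regulators of the BCL2 family, chosen by name with earlier results of these data known. They are BBC3, BMF, BIK, BCL2L11, BID, PMAIP1, BAX, BAK1, BCL2L1 and MCL1. All 10 were on the array, among 18132 genes, and were read by 45 of its 44988 gene probe sets. They were followed on 12 Affymetrix PrimeView arrays of total RNA from the lung cancer cell lines H1650, H1693 and H1993, which the series design says overexpress MARK2. In each line 2 arrays came from cells given a lentiviral short hairpin RNA against the kinase MARK2 and 2 from cells given the empty pLKO vector, called control here. The series design calls both arrays of a group biological replicates, and having 2 limits the precision. How many hairpins were used, and their sequences, is not given in the labels, so an effect of MARK2 loss and an effect of the hairpin itself cannot be told apart. In such bulk RNA, fewer cells with a transcript and less of it per cell cannot be told apart either.

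The BCL2 family decides at the outer mitochondrial membrane whether a stressed cell dies. BAX and BAK1 are the effectors, which form pores that release cytochrome c. BCL2L1 (its long form is BCL-XL) and MCL1 hold the effectors and their activators in check. BH3-only proteins, here PMAIP1 (NOXA), BBC3 (PUMA), BMF, BIK, BCL2L11 (BIM) and BID, carry a short helix that fits the groove of the anti-apoptotic proteins, and several of them also engage BAX and BAK1 directly. Many BH3-only genes are switched on at the RNA level by stress, while MCL1 is a short-lived protein whose amount depends strongly on its degradation.

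After the hairpin PMAIP1 rose in all 3 lines and was the 1 member of the 10 to do so at the settings used here. With a trend in the variance prior MCL1 also passed in H1993, as given with that gene. BH3-only genes were 5 of the 6 members that rose in H1993 and 3 of the 6 that rose in H1693, where both anti-apoptotic genes rose too. BMF counts in H1993 through a probe set that is brightest only when the knockdown arrays are averaged in. On the probe set brightest over the control arrays, an alternative chosen after seeing the data, BMF changed by -0.14 there and did not pass. Changes are given as knockdown minus control on the scale of the deposited log2 signal, where 1 is a doubling, for the brightest probe set of each gene. Standard errors (SE) and p-values come from limma, adjusted by Benjamini-Hochberg over 16205 genes, with a threshold of 0.05. In H1993 6 of the 10 members rose, where 18.9% of all tested genes did, and none fell, where 14.5% did; at an unadjusted p under 0.05 the counts were also 6 and 0. In H1693 6 rose (17.1% of all genes) and 1 fell (15.9%). In H1650 2 rose (36.7%) and 4 fell (16.7%), among them BAX, BAK1 and BCL2L1. The median change of the 10 was 0.47 in H1993, 0.29 in H1693 and -0.18 in H1650, against 0.02, -0.02 and 0.15 for all genes tested. Of the 6 BH3-only genes, 5 rose in H1993, 3 in H1693 and 1 in H1650. The counts rest on 1 probe set per gene and on a list chosen with earlier results known, so they do not test the family against all genes. The rises of BMF and BCL2L11 did not extend to most of their other probe sets, as given with each gene. In limma's fit of all probe sets the rise in H1693 passed on 1 of 6 MCL1 and 2 of 3 BCL2L1 probe sets. That of BBC3 in H1993 passed on 1 of 2.

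The arrays of H1650 stood apart in RNA integrity, and this moved with the hairpin. The 3' minus 5' signal of GAPDH, which grows as RNA is degraded, was 2.68 ± 0.56 (log2, SD, n = 2) in the H1650 control and 6.82 ± 0.07 in the H1650 knockdown arrays, and lay between -0.12 and 0.02 on each of the 8 arrays of the other lines. Another scaling, quantile normalisation of the tested genes, moved the median change of all genes in H1650 from 0.15 to 0.04, and the share of calls that were higher from 68.8% to 57.7%. In the control arrays the brighter MARK2 probe set was at 9.12 in H1993 and 7.86 in H1693 but at 5.94 in H1650, 9.06-fold below H1993, and the dimmer one had a mean under a log2 signal of 5 in H1650. MARK2 itself fell in H1993 (-2.35) and H1693 (-1.27) on its brighter probe set, and was at -0.29 in H1650, which did not pass (adjusted p = 0.16 over all probe sets). The epithelial markers EPCAM, KRT18, KRT19 and CDH1 were between 12.11 and 15.01 in every group. KRT8 was between 14.62 and 14.70 in H1693 and H1993 but went from 11.66 to 7.19 in H1650. Of markers of blood and endothelial cells, PTPRC stayed under the log2 signal of 5 that was taken as the floor, CD3E, PECAM1 and CDH5 were between 5.53 and 6.18, and CD14 reached 8.72 in H1993. Of the blood and endothelial markers that were tested, CD14 in H1650 alone passed, at -0.55. CDH1 rose by 0.72 in H1693 and 0.85 in H1993.

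**Figure D1:**
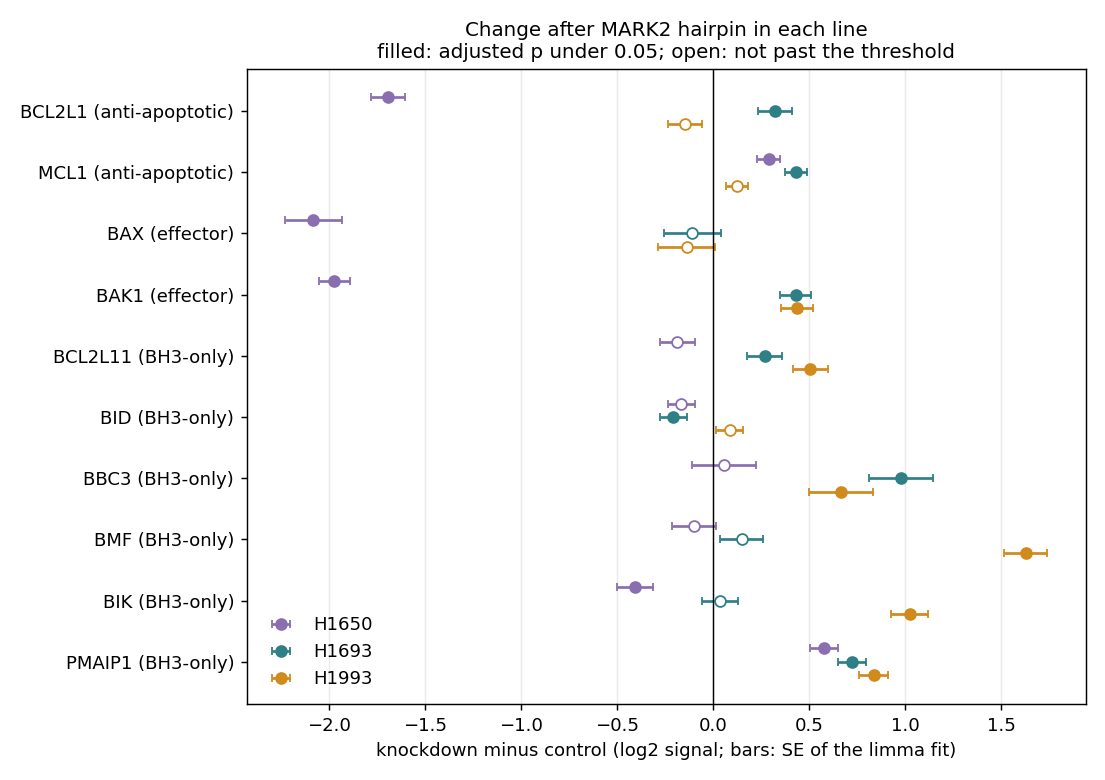
Change of each BCL2 family gene (knockdown minus control, log2 signal, brightest probe set) in H1650, H1693 and H1993, with bars for the SE of the limma fit and filled points for adjusted p under 0.05. PMAIP1 lies to the right of 0 in all 3 lines, and BMF (on 1 of its 4 probe sets) and BIK stand out in H1993 at 1.63 and 1.02. BAX, BAK1 and BCL2L1 lie at -2.08, -1.97 and -1.69 in H1650.

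PMAIP1, whose product NOXA binds chiefly MCL1, rose in each line. Its log2 signal (probe set 11724509_a_at) was 9.90 and 9.87 in the H1650 control arrays and 10.40 and 10.52 after knockdown. In H1693 it was 10.50 and 10.57 against 11.23 and 11.28, and in H1993 11.29 and 11.21 against 12.15 and 12.02. In no line did the control and knockdown arrays overlap. The changes were 0.58 (SE 0.07, adjusted p = 0.000121) in H1650, 0.72 (adjusted p = 7.1e-05) in H1693 and 0.83 (adjusted p = 2.75e-05) in H1993, or 1.49-fold, 1.65-fold and 1.78-fold. The test of a difference between the lines did not pass (adjusted p = 0.14), and the H1993 change minus the H1693 change was 0.11 with a 95% interval from -0.12 to 0.35. The dimmer probe set of PMAIP1 rose too, by 1.19, 0.70 and 0.91 in H1650, H1693 and H1993. In H1650, MARK2 on its brighter probe set was at -0.29 without passing, and 36.7% of all genes rose. The GAPDH 3' minus 5' signal went from 2.68 to 6.82 there, and its part in the PMAIP1 rise was not tested.

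BBC3, which encodes PUMA, a BH3-only protein able to bind all anti-apoptotic members, rose in H1693 and H1993. Its log2 signal (11727707_a_at) was 8.49 and 8.17 in the H1693 control arrays and 9.25 and 9.37 after knockdown, a change of 0.98 (SE 0.17, adjusted p = 0.00157), or 1.97-fold. In H1993 it was 7.80 and 8.20 in the control and 8.67 and 8.66 after knockdown, a change of 0.66 (adjusted p = 0.0122). The groups were apart in both lines, and the control arrays of H1993 had an SD of 0.29. Without H1993 control replicate 1 that change was 0.46 (adjusted p = 0.0993), and without knockdown replicate 1 or 2 it was 0.66 and 0.67 with adjusted p of 0.0545 and 0.0512. In H1650 the arrays overlapped, at 8.72 and 8.49 in the control and 8.85 and 8.47 after knockdown, with a change of 0.06 (adjusted p = 0.799). The dimmer BBC3 probe set changed by 0.14, 0.35 and 0.11 in H1650, H1693 and H1993 and passed in H1693.

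The DNA just before the start of the genes is shown for the 4 members whose brightest probe set rose in both H1693 and H1993. BCL2L11 is included through that probe set, while in limma's fit of all probe sets none of its 13 tested ones rose in H1693 and 4 fell. The 250 bases are from RefSeq (GRCh38.p14), 5′ to 3′ on the strand of the gene. Capitals mark matches on either strand to the GC box GGGCGG (bound by SP1), the E-box CACGTG, the CRE half-site TGACG (bound by CREB and ATF factors), the FOXO motif GTAAACA or the interferon response core.
PMAIP1, chr18:59899746-59899995, plus strand: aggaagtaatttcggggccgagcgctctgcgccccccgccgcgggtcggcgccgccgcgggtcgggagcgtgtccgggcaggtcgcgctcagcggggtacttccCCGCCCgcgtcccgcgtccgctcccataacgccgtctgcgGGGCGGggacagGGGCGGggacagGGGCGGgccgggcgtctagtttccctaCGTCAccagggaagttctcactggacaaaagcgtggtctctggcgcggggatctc
BBC3, chr19:47232668-47232917, minus strand: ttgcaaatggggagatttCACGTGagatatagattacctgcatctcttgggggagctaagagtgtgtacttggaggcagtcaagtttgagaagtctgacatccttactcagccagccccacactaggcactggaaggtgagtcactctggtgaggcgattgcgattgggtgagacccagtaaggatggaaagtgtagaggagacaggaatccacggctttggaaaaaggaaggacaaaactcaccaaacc
BAK1, chr6:33580277-33580526, minus strand: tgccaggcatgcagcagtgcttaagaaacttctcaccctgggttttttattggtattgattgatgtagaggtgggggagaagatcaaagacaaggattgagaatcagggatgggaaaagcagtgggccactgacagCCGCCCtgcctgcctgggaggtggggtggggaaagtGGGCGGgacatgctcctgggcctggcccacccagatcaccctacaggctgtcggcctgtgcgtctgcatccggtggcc
BCL2L11, chr2:111120664-111120913, plus strand: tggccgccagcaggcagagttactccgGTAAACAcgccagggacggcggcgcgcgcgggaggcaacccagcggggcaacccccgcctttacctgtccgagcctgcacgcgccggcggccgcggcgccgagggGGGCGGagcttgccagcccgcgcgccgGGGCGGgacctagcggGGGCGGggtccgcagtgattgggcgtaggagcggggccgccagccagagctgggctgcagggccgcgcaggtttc

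The 4 windows share no single motif of those searched. PMAIP1 has 4 GC boxes and a CRE half-site that begins 55 bases before the start, BAK1 has 2 GC boxes, and BCL2L11 has 3 GC boxes and the FOXO motif 223 bases before the start. BBC3 has the E-box alone, 232 bases before its start. Among 35116 promoter windows of the same length, 42.6% hold the GC box, 21.2% the CRE half-site, 6.34% the E-box, 3.02% the interferon core and 2.98% the FOXO motif. Windows of members not shown hold these motifs too. The BAX window has 4 E-boxes, a GC box and a CRE half-site, and the first BMF window has a GC box and a CRE half-site. The first BCL2L1 window has a CRE half-site, and BID windows have up to 4 GC boxes and in some an E-box. Motifs were not compared between members that rose and those that did not. The windows of PMAIP1 and BCL2L11 are 72.8% and 76.8% G or C and those of BBC3 and BAK1 49.2% and 58%, where the median of all windows is 58%. Of the 10 members 8 have an entry in this table, and MCL1 and BIK have none. These matches describe letters, and a binding of any factor was not measured.

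**Figure D2:**
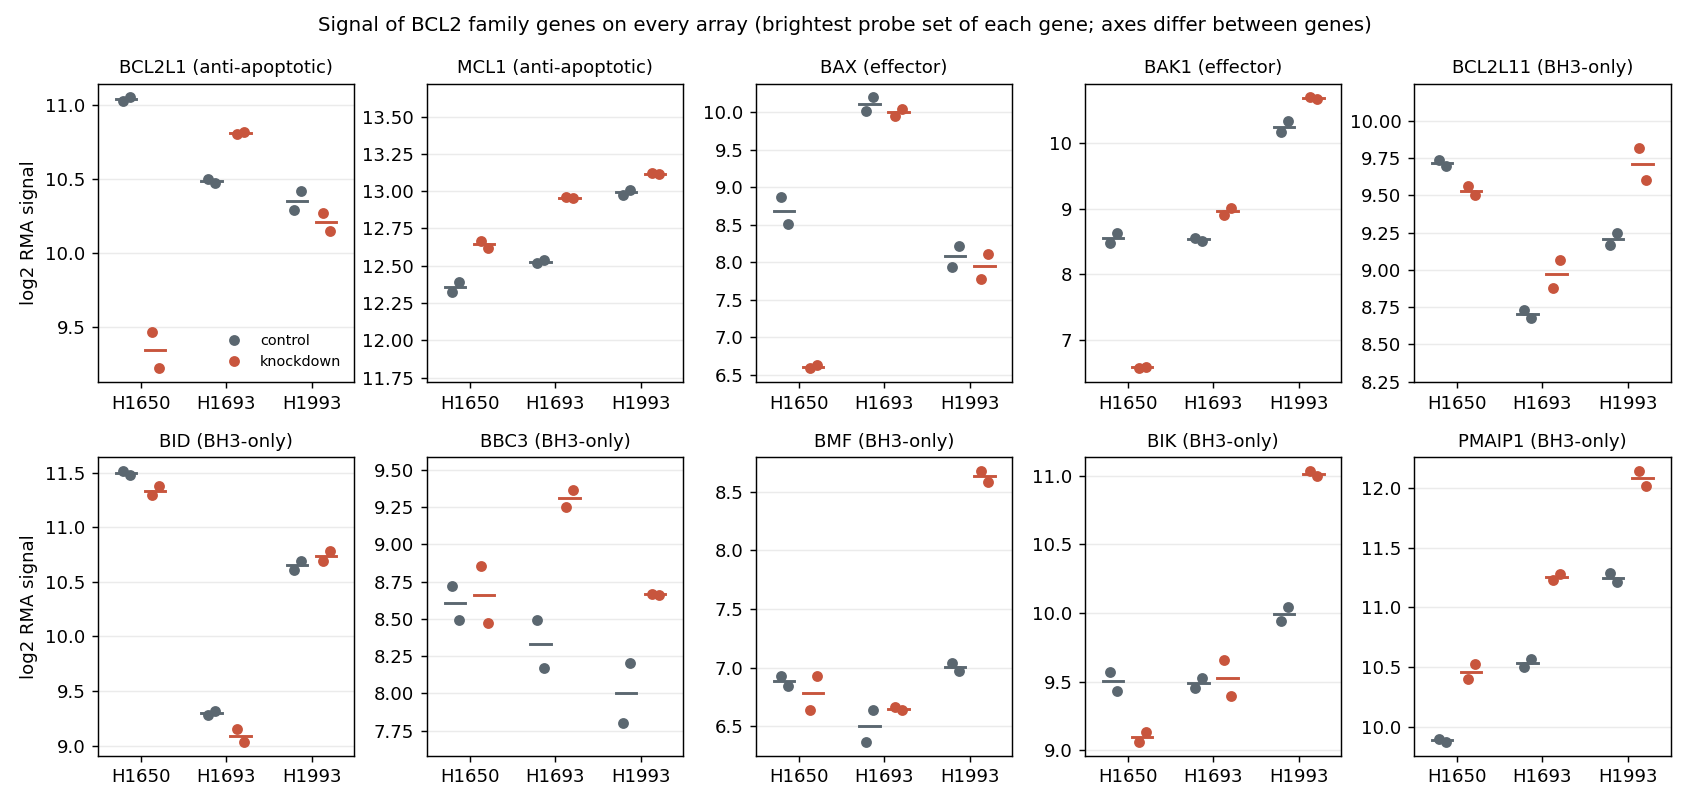
Deposited log2 signal of the brightest probe set of each gene on each of the 12 arrays, in pLKO control (grey) and MARK2 knockdown (red) arrays, with short lines for group means. The axes differ between genes. PMAIP1 is above its control in all 3 lines, BMF leaves a band between 6.36 and 7.04 only in the knockdown arrays of H1993, at 8.68 and 8.59, and BAX and BAK1 drop to between 6.57 and 6.63 in the knockdown arrays of H1650.

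BIK, which encodes a BH3-only protein of the endoplasmic reticulum, doubled in RNA signal in H1993 and did not pass in H1693. In H1993 its signal (11722954_x_at) was 9.94 and 10.04 in the control and 11.03 and 10.99 after knockdown, a change of 1.02 (SE 0.09, adjusted p = 3.49e-05). In H1693 it was 9.46 and 9.52 against 9.66 and 9.39, with the knockdown arrays on both sides of the control and a change of 0.04 (adjusted p = 0.82). The change was larger in H1993 than in H1693 by 0.99 (SE 0.13, adjusted p = 0.00081). All 3 BIK probe sets rose in H1993, by 1.00, 1.02 and 1.10. In H1693 the dimmest of them rose by 0.37 and the other 2 did not pass. In H1650, beside the GAPDH difference given above, the 3 probe sets fell, at -0.41, -0.63 and -1.86.

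BMF, which encodes a BH3-only protein associated with the cytoskeleton through a myosin motor, had the largest change of the 10 in H1993, but on 1 probe set of 4. That probe set (11737440_a_at) was 7.04 and 6.97 in the H1993 control and 8.68 and 8.59 after knockdown, a change of 1.63 (SE 0.11, adjusted p = 7.03e-06), or 3.09-fold. In H1693 it was 6.36 and 6.64 in the control and 6.66 and 6.64 after knockdown, and in H1650 6.93 and 6.84 against 6.64 and 6.93, with changes of 0.15 and -0.10 that did not pass. The change in H1993 exceeded that in H1693 by 1.48 (adjusted p = 0.000229). The other 3 BMF probe sets changed by -0.14, -0.20 and -0.05 in H1993, and none passed. Their means over all arrays were 7.08 for the one that moved and 7.06, 6.91 and 5.64 for the others, and the one that moved is the brightest only when the knockdown arrays are counted. With the probe set that is brightest over the control arrays, an alternative chosen after seeing the data, BMF changed by -0.14 in H1993 (adjusted p = 0.374) and 5 members, not 6, were called there.

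BCL2L11 encodes BIM, an activator of BAX and BAK1 made in several splice forms, and its 14 probe sets did not move as one. On the brightest (11718078_a_at) the H1993 signal was 9.16 and 9.24 in the control and 9.82 and 9.60 after knockdown, a change of 0.51 (SE 0.09, adjusted p = 0.00191). In H1693 it was 8.73 and 8.68 against 8.88 and 9.07, a change of 0.27 at the edge of the threshold (adjusted p = 0.0464). That call was lost in 9 of the 12 fits that leave out 1 array, with adjusted p between 0.0313 and 0.298, and the change was 0.17 without H1693 knockdown replicate 2. Adjusted over all probe sets, the same value did not pass. Of the 13 probe sets tested, 2 rose and 2 fell in H1993, at values from -0.67 to 0.51. In H1693 none rose and 4 fell in limma's fit of all probe sets, the lowest by 0.86, and the mean of all BCL2L11 probe sets changed by -0.24 (adjusted p = 0.0177). In H1993 that mean was at -0.048 (adjusted p = 0.649), so the H1993 call rests on the choice of probe set. In H1650 the brightest was 9.74 and 9.70 in the control and 9.56 and 9.50 after knockdown, a change of -0.19 that did not pass, and passed at -0.27 after quantile normalisation. Of the other probe sets there 3 rose and 1 fell. Which splice form each probe set reads was not analysed here.

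BID, whose protein caspase-8 cleaves to link death receptors to the mitochondria, had small changes on its brightest probe set that depended on the processing. In H1693 its signal (11732218_x_at) was 9.28 and 9.32 in the control and 9.15 and 9.03 after knockdown, a change of -0.21 (SE 0.07, adjusted p = 0.0481). That call was lost in 10 of the 12 fits without 1 array, where adjusted p ran from 0.0449 to 0.278, and when adjusted over all probe sets. In H1993 it was 10.61 and 10.69 against 10.69 and 10.78 (change 0.09, adjusted p = 0.424), and in H1650 11.52 and 11.48 against 11.29 and 11.38 (change -0.17, adjusted p = 0.0757). The H1650 change passed after quantile normalisation, at -0.28 (adjusted p = 0.0144), and with the mean of all BID probe sets, at -0.18 (adjusted p = 0.0376). Over its 4 probe sets the changes ran from -0.28 to 0.06 in H1693, from -0.02 to 0.41 in H1993 and from -0.54 to 0.32 in H1650. Adjusted over all probe sets, 1 of the 4 fell in H1693 and 1 rose in H1993, and in H1650 1 rose and 2 fell.

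Of the effectors, BAK1 rose in H1693 and H1993, and BAX did not. BAK1 (11732515_x_at) was 8.55 and 8.52 in the H1693 control and 8.91 and 9.01 after knockdown, a change of 0.43 (SE 0.08, adjusted p = 0.00277). In H1993 it was 10.16 and 10.33 against 10.70 and 10.67, a change of 0.44 (adjusted p = 0.00241). The arrays did not overlap in either line, and the difference between the 2 changes was 0.01 with a 95% interval from -0.25 to 0.27. Of the 5 BAK1 probe sets, 4 rose in H1693 and 2 in H1993, and none fell in these lines in limma's fit of all probe sets. In H1650 the same probe set went from 8.47 and 8.63 to 6.57 and 6.59, a change of -1.97 (adjusted p = 2.05e-07), while its other 4 probe sets there ran from -1.06 to 0.13.

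BAX (11742537_a_at) was 10.01 and 10.20 in the H1693 control and 9.95 and 10.05 after knockdown, a change of -0.11 (SE 0.15, 95% interval from -0.44 to 0.22, adjusted p = 0.645). In H1993 it was 7.94 and 8.22 against 7.78 and 8.11, a change of -0.14 (95% interval from -0.47 to 0.20, adjusted p = 0.553), and the arrays overlapped in both lines. The dimmer BAX probe set fell in both lines, at -0.38 in H1693 and -0.39 in H1993, with adjusted p of 0.048 and 0.046 over all probe sets. In H1650 the brighter one went from 8.87 and 8.51 to 6.59 and 6.63, a change of -2.08 (adjusted p = 3.27e-06), and the dimmer fell by 0.62. The falls of BAX and BAK1 in H1650 stand beside the rise of the GAPDH 3' minus 5' signal from 2.68 to 6.82, whose part in them was not tested.

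Of the anti-apoptotic genes, MCL1 and BCL2L1 rose in H1693 and neither passed in H1993 at the settings used here. MCL1 (11715483_s_at) was 12.52 and 12.54 in the H1693 control and 12.96 and 12.96 after knockdown, a change of 0.43 (SE 0.06, adjusted p = 0.00042), or 1.35-fold. In H1993 it was 12.98 and 13.01 against 13.12 and 13.11, a change of 0.12 (95% interval from -0.01 to 0.26, adjusted p = 0.147). That change passed in limma with a trend in the variance prior (adjusted p = 0.0279), while the mean of all 6 probe sets was at -0.054. In H1650 the brightest probe set rose by 0.29, from 12.32 and 12.39 to 12.67 and 12.62. The other 5 MCL1 probe sets ran from -0.08 to 0.39 in H1693 and none of them passed. In H1650 they ran from -2.38 to 0.75, with 2 of all 6 higher and 2 lower, and the mean of all 6 changed by -0.46 (adjusted p = 0.000235), opposite to the brightest.

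BCL2L1 (11739958_x_at) was 10.50 and 10.47 in the H1693 control and 10.80 and 10.81 after knockdown, a change of 0.32 (SE 0.09, adjusted p = 0.0192). The call was lost when any 1 of the 4 H1693 arrays was left out, with changes from 0.31 to 0.34 and adjusted p from 0.0702 to 0.0958. In H1993 it was 10.29 and 10.42 against 10.27 and 10.15, a change of -0.14 (adjusted p = 0.264). All 3 BCL2L1 probe sets were lower after knockdown in H1993, at -0.14, -0.41 and -0.49, without passing, and their mean changed by -0.35 (adjusted p = 0.0255). In H1650 the brightest went from 11.03 and 11.05 to 9.47 and 9.22, a change of -1.69 (adjusted p = 5.97e-07), while the other 2 were at 0.08 and -0.09. Which of the long, anti-apoptotic and short, pro-apoptotic forms each probe set reads was not analysed here.

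**Figure D3:**
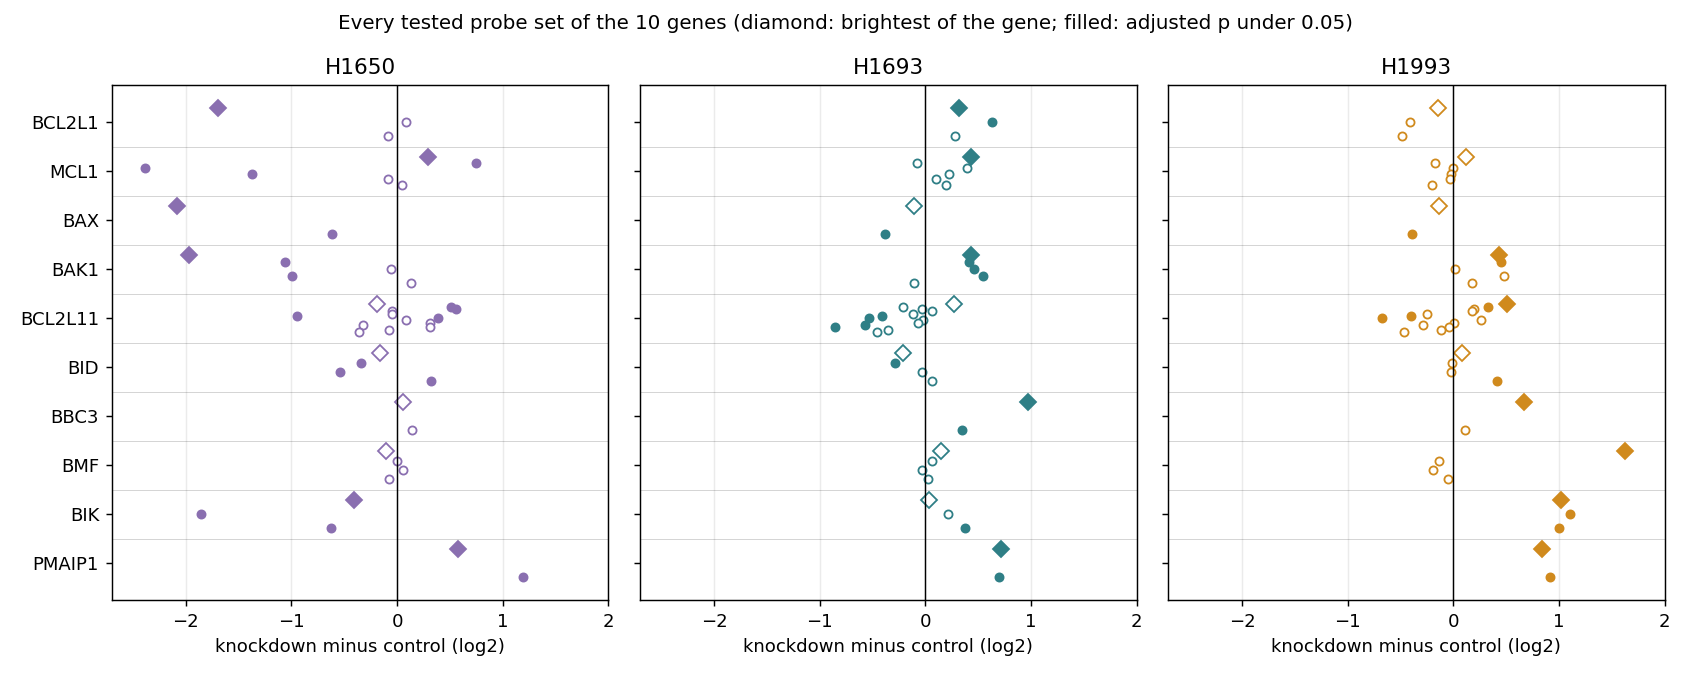
Change of every tested probe set of the 10 genes in each line (knockdown minus control, log2), with a diamond for the brightest probe set of the gene and filled marks for adjusted p under 0.05 over all 38924 probe sets tested. The 3 BIK and 2 PMAIP1 probe sets lie together in H1993, 1 BMF probe set lies alone at 1.63, and those of MCL1 spread from -2.38 to 0.75 in H1650.

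Counted over all 44 tested probe sets, 12 rose and 3 fell in H1993, where 15.0% and 13.7% of all probe sets did. In H1693 12 rose (15.7%) and 6 fell (13.4%), and in H1650 8 rose (30.0%) and 14 fell (21.3%). Probe sets of a gene share its transcripts and are not replicates, and BCL2L11 alone gives 13 of the 44. For the 7 members with at least 3 tested probe sets, the SD over the probe sets of 1 gene had a median of 0.78 in H1650, 0.19 in H1693 and 0.20 in H1993. Over 5929 genes of that kind it was 0.39, 0.14 and 0.14. The names of the brightest probe sets of BCL2L1, BAK1, BID and BIK end in _x_at and that of MCL1 in _s_at, by which Affymetrix marks probes that can also match other transcripts.

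Between H1993 and H1693, the lines with alike GAPDH values, the change differed for 4 of the 10 members, where 22.1% of all genes differed. BMF and BIK changed more in H1993, by 1.48 and 0.99. The knockdown changes of BCL2L1 and MCL1 were lower there, by 0.47 (adjusted p = 0.0255) and 0.31 (adjusted p = 0.0268). The difference for BCL2L1 was lost in 6 and that for MCL1 in 8 of the 12 fits without 1 array, and that for BMF rests on the probe set described above. For BBC3 the H1993 change minus the H1693 change was -0.31 (95% interval from -0.84 to 0.22) and for BCL2L11 it was 0.24 (95% interval from -0.05 to 0.52), and neither passed. Over all 3 lines 8 of the 10 members differed, all except PMAIP1 and BID, where 54.9% of all genes did, and this test includes H1650.

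Control levels of the family differed between the lines for most members, as they did for most genes. In H1993 against H1693, 7 members were higher (30.1% of all genes) and 1 was lower (32.9%). BAX was the lower one, at 8.08 ± 0.20 (log2 signal, SD, n = 2) in H1993 against 10.11 ± 0.13 in H1693, a 4.07-fold difference (adjusted p = 7.32e-07), and its dimmer probe set was at 7.15 and 8.73. BAK1 was higher in H1993, at 10.25 ± 0.12 against 8.53 ± 0.02, a 3.29-fold difference (adjusted p = 2.82e-08). BID followed at 10.65 ± 0.06 against 9.30 ± 0.03 and PMAIP1 at 11.25 ± 0.05 against 10.53 ± 0.05. BCL2L11, BMF, BIK and MCL1 were higher in H1993 by 0.50, 0.50, 0.50 and 0.47. For BCL2L1 and BBC3 the neighbours H1993 and H1693 did not differ beyond their spread on the brightest probe set, with adjusted p of 0.224 and 0.112. The second BCL2L1 probe set was higher in H1993, at 8.11 against 7.67 (adjusted p = 0.0379 in limma over all probe sets). BMF on its other probe set lost its difference between H1993 and H1693 (0.21, adjusted p = 0.114), and the mean of all BCL2L11 probe sets was at -0.10. For BBC3 the difference passed without H1993 control replicate 2, at -0.54 (adjusted p = 0.0302).

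Against the H1650 control, whose GAPDH value of 2.68 differed from those of the other lines, 7 members differed in H1693, 3 higher (24.5% of all genes) and 4 lower (38.5%). In H1993 9 differed, 4 higher (23.7%) and 5 lower (40.1%). BID was highest in H1650, at 11.50 ± 0.02, and 4.6-fold lower in H1693, with all 4 of its probe sets in the order H1650, H1993, H1693. PMAIP1 had the order H1993, H1693, H1650, with 9.88 ± 0.02 in H1650, and each neighbour differed (adjusted p of 1e-05 and 2.31e-05). MCL1 had the same order, at 12.36 ± 0.05 in H1650, but its difference between H1693 and H1650, 0.17, was lost without either H1693 control array or H1650 control replicate 1 (values from 0.14 to 0.18). This MCL1 order is that of the brightest probe set, and 11715482_a_at (9.44 in H1650, 10.58 in H1693, 11.42 in H1993) and 11715486_x_at had it too. On 11715485_a_at H1650 was highest, at 10.28 against 10.04 in H1693 and 9.92 in H1993. Both of those differences from H1650 passed over all probe sets, and the remaining MCL1 probe sets had neither order. BAX in H1650, at 8.69 ± 0.25, lay between H1693 and H1993. BCL2L11 was highest in H1650, at 9.72 ± 0.03, above H1993 by 0.51 and above H1693 by 1.01. For BAK1 and BIK the H1693 minus H1650 difference did not pass on the brightest probe set (-0.02 and -0.01), and both signs turned after quantile normalisation, to 0.22 (passed) and 0.23. The 5 BAK1 probe sets disagreed, with 2 higher in H1693 (2.58 and 0.49), 1 lower (-0.21) and a mean over all of them that was higher by 0.55 (adjusted p = 4.08e-05). BCL2L1 was highest in H1650 on its brightest probe set, at 11.04 against 10.49 and 10.35 in H1693 and H1993, and lowest there on its second, at 5.90 against 7.67 and 8.11. BMF in H1650 was above H1693 by 0.38, and without H1693 control replicate 1 by 0.25, which did not pass, nor did it without H1650 control replicate 1 (0.34). BBC3 in H1993 was below H1650 by 0.60, and by 0.40 and 0.49 without H1993 control replicate 1 and H1650 control replicate 1, where it did not pass. After quantile normalisation the H1993 minus H1650 differences of BAX and BBC3 did not pass (-0.29 and -0.28), that of BMF passed (0.40), and the H1693 minus H1650 difference of BMF did not (-0.23). This scaling moved the median of all genes from -0.12 to 0.03 for H1693 minus H1650 and from -0.12 to 0.08 for H1993 minus H1650, and the share of calls that were higher from 38.9% to 51.6% and from 37.2% to 53.3%.

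Other genes of mitochondrial apoptosis moved in both directions. The counts of these lists stand beside those of all tested genes, of which 18.9% rose and 14.5% fell in H1993, 17.1% and 15.9% in H1693, and 36.7% and 16.7% in H1650. In the lists of 11 genes, for example, the 3 that rose in H1650 are a smaller share than among all genes. Of 11 tested genes of the wider family (BCL2 relatives and the BNIP3 mitophagy receptors), 1 rose and none fell in H1993 (2 and 0 at an unadjusted p under 0.05 in limma), namely BNIP3L at 0.29. In H1693 2 rose and 2 fell, with the anti-apoptotic BCL2L2 (BCL-W) at 0.60, BCL2L13 at 0.34, BCL2L15 at -0.30 and the hypoxia-induced BNIP3 at -0.36. BCL2L2 changed by less in H1993 than in H1693, by -0.77 (adjusted p = 0.00107). In H1650 3 rose and 2 fell, including the effector-like BOK at -2.51, BCL2L13 at 0.56, the BH3-only BAD at -0.42 and BCL2L10 at 0.32, beside the GAPDH difference. BCL2 itself changed by 0.09, -0.04 and -0.20 in H1650, H1693 and H1993 and did not pass, and BCL2A1 stayed under the floor.

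Downstream of the membrane, 10 genes of the apoptosome, caspases and mitochondrial factors were tested. In H1693 1 rose and 3 fell: the initiator caspase CASP8 at 1.05, the cytochrome c sensor APAF1 at -0.53, AIFM1 at -0.45 and cytochrome c, CYCS, at -0.26. In H1993 2 rose and 2 fell, with CASP6 at 0.40, CASP9, the caspase of the apoptosome, at 0.29, CASP2 at -0.47 and the nuclease ENDOG at -0.43. In H1650 4 rose and 2 fell, led by CASP8 at -0.84, APAF1 at 0.74, ENDOG at -0.47 and CYCS at 0.35. Of 6 inhibitor of apoptosis genes, BIRC5 (survivin, which also serves mitosis) fell in H1693 (-0.69) and H1993 (-0.70), and NAIP in H1693 and BIRC2 in H1993 rose by 0.35 and 0.27. In H1650 NAIP, XIAP and BIRC2 rose by 0.53, 0.48 and 0.47.

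Genes that act on MCL1 protein or bind BAK1 were unevenly changed. BTRC, a ubiquitin ligase subunit, rose in each line, by 0.34, 0.65 and 0.73 in H1650, H1693 and H1993. The mitochondrial porin VDAC1 fell in H1693 (-0.72) and H1993 (-0.60), and VDAC3 by 0.27 in H1693. In H1993 the ligase gene MARCHF5 fell by 0.67 and the deubiquitinase USP9X, which stabilises MCL1, rose by 0.42, as part of 4 of 8 genes higher and 2 lower. In H1693 the counts were 1 and 2, and in H1650 4 and 1, with the MCL1 ligase HUWE1 at -0.89, FBXW7 at 0.72 and VDAC3 at 0.22.

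Of 11 transcription factors that act on BH3-only genes, 3 rose and 3 fell in H1693, 1 rose and 3 fell in H1993, and 3 rose and 3 fell in H1650. JUN rose by 1.13 in H1693 and 0.28 in H1650 and fell by 0.86 in H1993, and between H1993 and H1693 there was a difference of -1.98 (adjusted p = 1.54e-05). DDIT3 (CHOP, of the endoplasmic reticulum stress response) rose by 0.84 in H1693 and was at -0.25 in H1993, which did not pass, a difference of -1.09 (adjusted p = 0.00282), and fell by 1.01 in H1650. FOXO1 fell by 0.91 in H1993 and was at -0.12 in H1693. E2F1 fell by 0.99, 0.45 and 0.34 and CREB1 rose by 0.31, 0.33 and 0.40 in H1650, H1693 and H1993. TP73 fell by 0.35 in H1693, and ATF4 by 0.38 in H1650.

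**Figure D4:**
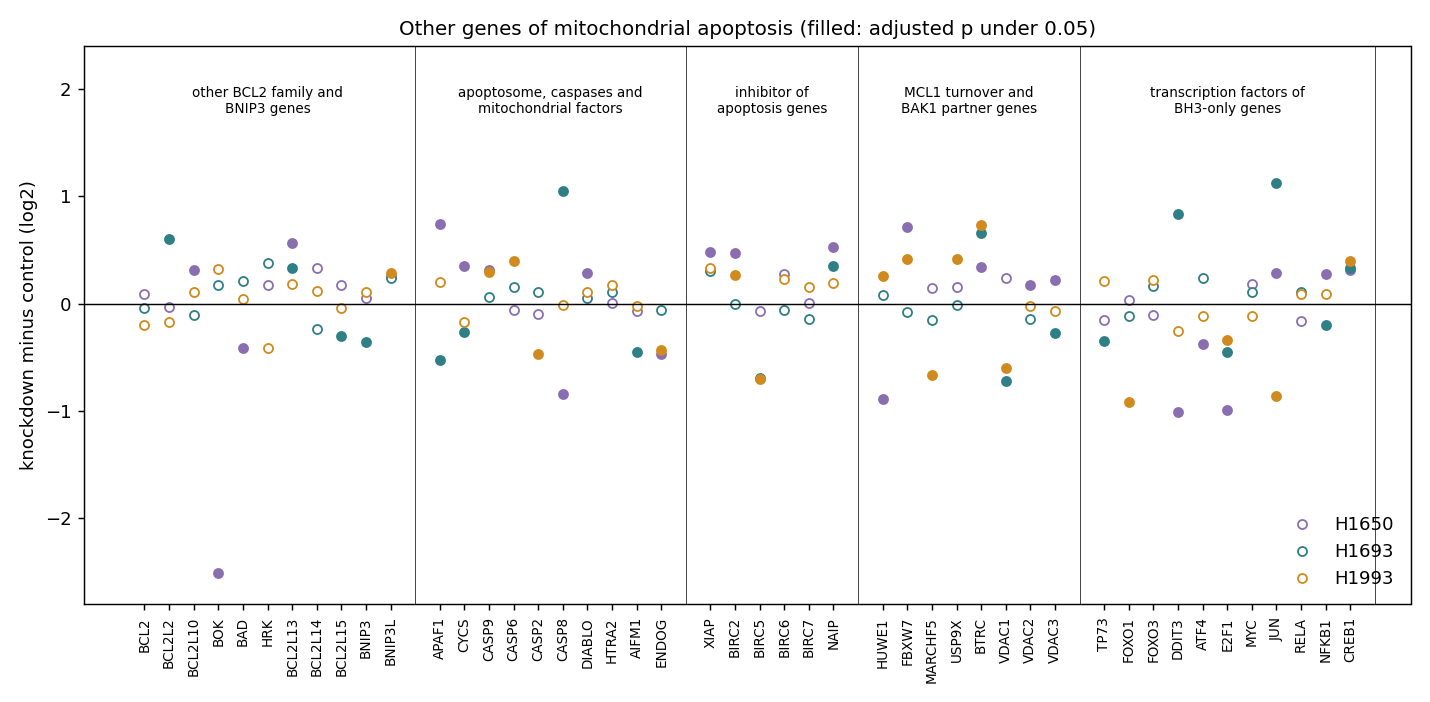
Change (knockdown minus control, log2 signal) of the tested genes of 5 related lists in H1650, H1693 and H1993, filled where adjusted p is under 0.05. Each list holds rises and falls, JUN lies at 1.13 in H1693 and -0.86 in H1993, and BIRC5 at -0.69 and -0.70 in these lines.

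For the members called in at least 2 lines, the genes with the most alike signal over the 12 arrays were found by Pearson correlation. PMAIP1 was most like PON2 (r = 0.982) and MAN2B1 (0.981), BAK1 most like DGAT1 (0.995) and LRRC41 (0.993), and BIK most like NFKB2 and SLC44A4 (both 0.975). MCL1 was nearest to ALCAM (0.985) and GPR155 (0.980), BCL2L11 to HK1 (0.974) and SLC35A2 (0.969), BCL2L1 to STK10 (0.960) and ZNF787 (0.954), and BBC3 to SEMA3D (0.899) and CAPN14 (0.884). The 12 arrays share line differences and, in H1650, the difference in RNA integrity, so these values are descriptions.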

How the data were processed

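Total RNA of 12 samples was hybridised, each to its own Affymetrix PrimeView array. The deposited log2 values came, per the submitters' processing notes, from RMA as run in Expression Console, of unstated version. RMA corrects background, equalises the distributions of the arrays and pools the probes, and changes of dim genes come out too small. Array medians ran from 7.13 to 7.32.

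Probe sets with 1 gene symbol in the platform annotation were kept, with symbols updated through gene IDs to RefSeq GRCh38.p14. The brightest probe set on average over the 12 arrays stood for its gene. Genes with a log2 signal of 5 on at least 2 arrays were tested. The brightest probe set of each of the 10 members reached it on every array, and 44 of their 45 probe sets passed the filter. A mean per group was fitted with limma 3.58.1 (R 4.3.3), with eBayes, 6 residual and 3.52 prior degrees of freedom, two-sided tests and Benjamini-Hochberg adjustment. A second fit used all 38924 probe sets that passed. The code was tested on simulated data. Replicate arrays were no duplicates (identical values in at most 0.0992% of probe sets).

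The members and gene lists were chosen with earlier results of these data known. Named were all members, from each other list and line the 4 largest changes past the threshold (2 values where none passed), and the 2 genes most like each member called in at least 2 lines. Further genes given by their values (BCL2 and BCL2A1, and values of a named gene in other lines) were added after their values were seen. Alternatives covered the filter, the probe set, quantile normalisation, the variance prior, the arrays fitted, a replicate block and leaving out each array.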

Additional observations from a re-analysis of the deposited data

Results flagged for a closer look

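For 8 members the change after the hairpin differed between the 3 lines by limma's F test. Its adjusted p was 7.03e-06 for BCL2L1, 0.0299 for MCL1, 6.81e-05 for BAX and 1.39e-06 for BAK1. It was 0.00358 for BCL2L11, 0.0212 for BBC3, 4.34e-05 for BMF and 6.16e-05 for BIK. Of all genes 54.9% differed, and the H1650 arrays, with GAPDH 3' minus 5' signals of 2.68 and 6.82, take part in the test. Their part in it was not tested. The MCL1 and BBC3 differences were lost in 8 and 4 of the 12 fits without 1 array. Lost too were those of BMF on the probe set brightest over the control arrays (adjusted p = 0.484), of BCL2L11 with the mean of all probe sets (0.0805) and of MCL1 with the replicate block (0.0942). That of BID passed with the mean of all probe sets (0.0396), with the filter at a log2 signal of 6 (0.0470) and with a trend in the variance prior (0.0346).

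Between H1993 and H1693 alone, 4 members differed. The H1993 change minus the H1693 change was 1.48 for BMF, 0.99 for BIK, -0.47 for BCL2L1 and -0.31 for MCL1. For BIK all 3 probe sets rose in H1993. For BMF 1 of 4 did, and with the probe set that is brightest over the control arrays the difference was -0.20 (adjusted p = 0.388).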

How the results depend on the processing

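Leaving out 1 array gave 6 BCL2 family members called in H1650, 4 to 6 in H1693 (7 with all arrays) and 5 or 6 in H1993, 2 to 4 for the H1993 change minus the H1693 change (4 with all arrays), and 6 to 8 for the difference over the 3 lines. The count for H1993 minus H1693 was 2 with the mean of all probe sets of a gene and 2 with the replicate block. Signs turned without 1 array only for changes that did not pass: BBC3 in H1650 (-0.13 to 0.25), BMF in H1650 (-0.25 to 0.048), BIK in H1693 (-0.10 to 0.17), BAX in H1993 (-0.30 to 0.028), the control differences of BAK1 (-0.10 to 0.059) and BIK (-0.080 to 0.059) between H1693 and H1650, and the H1993 minus H1693 differences of BAX (-0.19 to 0.14) and BAK1 (-0.077 to 0.092).

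With the mean of all probe sets of a gene, the knockdown change turned for MCL1 in H1650 (-0.46) and H1993 (-0.054), for BCL2L11 in H1650 (0.020), H1693 (-0.24) and H1993 (-0.048), and for BAK1 in H1993 minus H1693 (-0.039). So did the control differences H1693 minus H1650 of BCL2L1 (0.34), BAK1 (0.55) and BIK (0.13), H1993 minus H1650 of BCL2L1 (0.49) and BMF (-0.089), and H1993 minus H1693 of BCL2L1 (0.15) and BCL2L11 (-0.10). With quantile normalisation the control differences H1693 minus H1650 of BAK1 (0.22) and BIK (0.23) and the H1993 minus H1693 change of BAK1 (-0.018) turned. With the probe set brightest over the control arrays, chosen after seeing the data, BMF turned in H1993 (-0.14), in its control difference H1993 minus H1650 (-0.12) and in H1993 minus H1693 (-0.20). The cause was not tested. These were the 19 reversals among 600 member values under alternatives that keep all arrays of the lines compared, and 548 kept sign and side of the threshold. A sign could turn only with the mean of all probe sets, with quantile normalisation and, for BMF, with the control-chosen probe set. The other alternatives leave the change as it is and alter p-values alone, so 19 of 600 does not measure how stable the signs are.

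Replicate numbers are shared by control and knockdown arrays of a line, but same-numbered arrays deviated together in H1993 alone (r across genes -0.11, -0.18 and 0.29 in H1650, H1693 and H1993), so the numbers were not taken as pairs. With the replicate block within each line, 6, 5 and 6 members were called in H1650, H1693 and H1993, with BCL2L11 and BID lost in H1693, and BCL2L1 and MCL1 lost in H1993 minus H1693. Signal over background limits MARK2 in H1650 and the dimmest probe sets, and 2 arrays a group limit every interval.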
